A study of Mus musculus with 12 samples.

Results

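The genes of major histocompatibility complex (MHC) class I antigen presentation and of the immunoproteasome were described in cultured mouse type II alveolar epithelial cells, the surfactant-making cells of the lung alveolus. The set was fixed as H2-K1, H2-D1, B2m, Tap1, Tap2, Tapbp, Psmb8, Psmb9, Psmb10 and Nlrc5, which are 10 of the 18193 genes named on an Affymetrix mouse array. Every probe set annotated to 1 of these genes alone was used, which gave 27 of the 45037 probe sets tested. A probe set is a group of short probes whose joint brightness stands for a transcript, and its values are given on a log2 scale, where a difference of 1 is a doubling.

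RNA was measured on 12 arrays in 4 genotype groups of 3 arrays each. The groups were cells of mice lacking Gnaq and Gna11 (Gnaq/Gna11 cells), cells lacking Gna11 (Gna11 cells), cells lacking Gna12 and Gna13 (Gna12/Gna13 cells) and cells lacking Gna12 (Gna12 cells). These genes encode alpha subunits of the G proteins that link surface receptors to phospholipase C (Gq and G11) or to RhoA (G12 and G13). The stated aim was to set cells of double knockout mice against cells of single knockout mice. Every group carried a knockout and no wild type cells were included, so each difference is between knockouts. All cells were cultured for 7 days without further treatment, in a bronchial epithelial medium that held 10 µg/ml of keratinocyte growth factor, lacked hydrocortisone and was changed every 3 days. From each sample 10 ng of RNA went into amplification. The sources used here give neither strain nor age, nor how, or in which cells, Gnaq and Gna13 were deleted. Nor do they say if samples sharing a genotype were from different mice or cultures, so p-values here reflect only sample-to-sample spread, part of which may be technical.

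MHC class I molecules show peptides from the inside of a cell to CD8 T cells. Each molecule pairs a heavy chain, here H2-K or H2-D, with beta-2 microglobulin (B2m), and peptides reach it through the transporter of Tap1 and Tap2 with the help of tapasin (Tapbp). The peptides come from the proteasome, in which interferon brings in the subunits Psmb8, Psmb9 and Psmb10 in place of Psmb5, Psmb6 and Psmb7, while Nlrc5 is a transactivator of class I promoters. Alveolar type II cells carry class I molecules and, in mice and humans, class II molecules too.

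Class I promoters are known for binding sites of NF-kappa B, of interferon regulatory factors, of NF-Y at CCAAT boxes and of CREB family factors, so the promoters of the 4 genes called in the comparison of Gnaq/Gna11 with Gna11 cells are shown, with that of H2-D1 beside its close relative H2-K1. RefSeq windows from 250 bases before to 50 bases after the gene start (GRCm38.p6) were held for 8 of the 10 genes, and Tap2 and Nlrc5 had none in the table. The windows printed 5′ to 3′ are those of H2-K1 at chr17:34000298-34000597 on the minus strand, H2-D1 at chr17:35262844-35263143 on the plus strand, B2m at chr2:122147437-122147736 on the plus strand, Tap1 at chr17:34187306-34187605 on the plus strand and Psmb8 at chr17:34197945-34198244 on the plus strand. The Tap1 window also holds most of that of Psmb9. Capitals mark matches on either strand to any of 5 short motifs, and no 2 matches overlapped in these windows.
H2-K1: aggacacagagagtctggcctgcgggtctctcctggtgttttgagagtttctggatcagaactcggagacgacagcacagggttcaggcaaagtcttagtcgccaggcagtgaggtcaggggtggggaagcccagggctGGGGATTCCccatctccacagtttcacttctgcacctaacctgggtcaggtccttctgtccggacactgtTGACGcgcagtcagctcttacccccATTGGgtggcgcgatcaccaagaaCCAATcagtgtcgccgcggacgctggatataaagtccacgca
H2-D1: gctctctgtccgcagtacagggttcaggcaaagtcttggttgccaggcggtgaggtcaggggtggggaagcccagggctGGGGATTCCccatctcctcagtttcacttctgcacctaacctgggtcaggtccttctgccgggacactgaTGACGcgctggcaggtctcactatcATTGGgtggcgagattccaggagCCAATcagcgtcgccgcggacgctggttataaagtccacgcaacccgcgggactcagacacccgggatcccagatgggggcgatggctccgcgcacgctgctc
B2m: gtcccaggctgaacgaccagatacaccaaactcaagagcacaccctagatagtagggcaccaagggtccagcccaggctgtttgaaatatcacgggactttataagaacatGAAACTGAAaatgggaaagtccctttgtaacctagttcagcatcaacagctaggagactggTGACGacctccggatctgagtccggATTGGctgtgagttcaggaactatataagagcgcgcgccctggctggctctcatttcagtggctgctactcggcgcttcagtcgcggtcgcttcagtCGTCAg
Tap1: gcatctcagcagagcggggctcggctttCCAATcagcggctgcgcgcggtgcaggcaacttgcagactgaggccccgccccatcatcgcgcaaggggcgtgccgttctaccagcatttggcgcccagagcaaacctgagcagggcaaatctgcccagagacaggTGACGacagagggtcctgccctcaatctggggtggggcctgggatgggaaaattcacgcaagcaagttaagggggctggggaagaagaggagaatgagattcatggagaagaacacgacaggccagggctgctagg
Psmb8: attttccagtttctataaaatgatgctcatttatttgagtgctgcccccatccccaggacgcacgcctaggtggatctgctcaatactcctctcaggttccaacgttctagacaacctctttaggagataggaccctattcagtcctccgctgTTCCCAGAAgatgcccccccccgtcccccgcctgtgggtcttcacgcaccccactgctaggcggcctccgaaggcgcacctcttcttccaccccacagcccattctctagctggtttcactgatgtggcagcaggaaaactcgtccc

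The kappa B motif GGGNNTTCC lay in the H2-K1 and H2-D1 windows as the same GGGGATTCC and was found in 5.82% of the 32851 windows in the table. Both of these windows also held 2 CCAAT boxes (CCAAT, in 37.4% of all windows) and 1 cAMP response element core (TGACG, in 20.8%), and the longest run of bases they shared was 47. The interferon response element core GAAANNGAA, in 8.56% of all windows, lay once in the B2m window as GAAACTGAA. This is 1 fixed pattern, which misses elements of other letters or spacing. Windows without a match, such as those of H2-K1 and H2-D1, are therefore not shown to lack an interferon element. Tap1 and Psmb9 are neighbours transcribed in opposite directions, and their windows overlapped over 275 bases, so the CCAAT box and the TGACG of that stretch belong to both. A gamma-activated sequence (TTCNNNGAA, in 8.3% of all windows) lay in the Psmb8 window as TTCCCAGAA, Tapbp had 2 CCAAT boxes, and none of the 5 motifs was in the Psmb10 window. A match of this kind is a description of letters and not of a bound site.

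The label of the cells was checked against marker genes. Of 12 type II cell markers 11 were measured, all at or above 5.10, the median of all probe set means. Their mean per array was 11.18 to 11.31 in Gnaq/Gna11 cells and 10.98 to 11.12 in Gna11 cells. It was 10.38 to 10.67 in Gna12/Gna13 cells and 10.44 to 10.81 in Gna12 cells. Markers of other cells reached that level as well. All 20 pan-leukocyte and all 12 macrophage markers were at or above the median, as were 4 of 7 dendritic cell markers. Also at or above that median were all 8 type I alveolar cell markers. The same held for 7 of 9 T, B and NK cell, 6 of 8 fibroblast and 4 of 6 endothelial markers. The mean of the T, B and NK cell markers was close to that median, at 5.42 to 6.08 per array. A value at or above the median is not a test of detection, and which cells gave these signals was not tested. The array medians lay between 5.03 and 5.11, the lowest correlation of 2 arrays of a group was 0.963 and no pair of arrays held the same values.

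Each gene is represented below by its brightest probe set (highest mean of the 12 arrays), and all 10 of these were at or above the median. Of the 27 probe sets 21 were at or above the median and 6 were below it. The names of 13 of the 27 end in x_at, the manufacturer's mark for probes that may bind more than 1 transcript, and 11 of these 13 belong to H2-K1 and H2-D1.

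**Figure D1:**
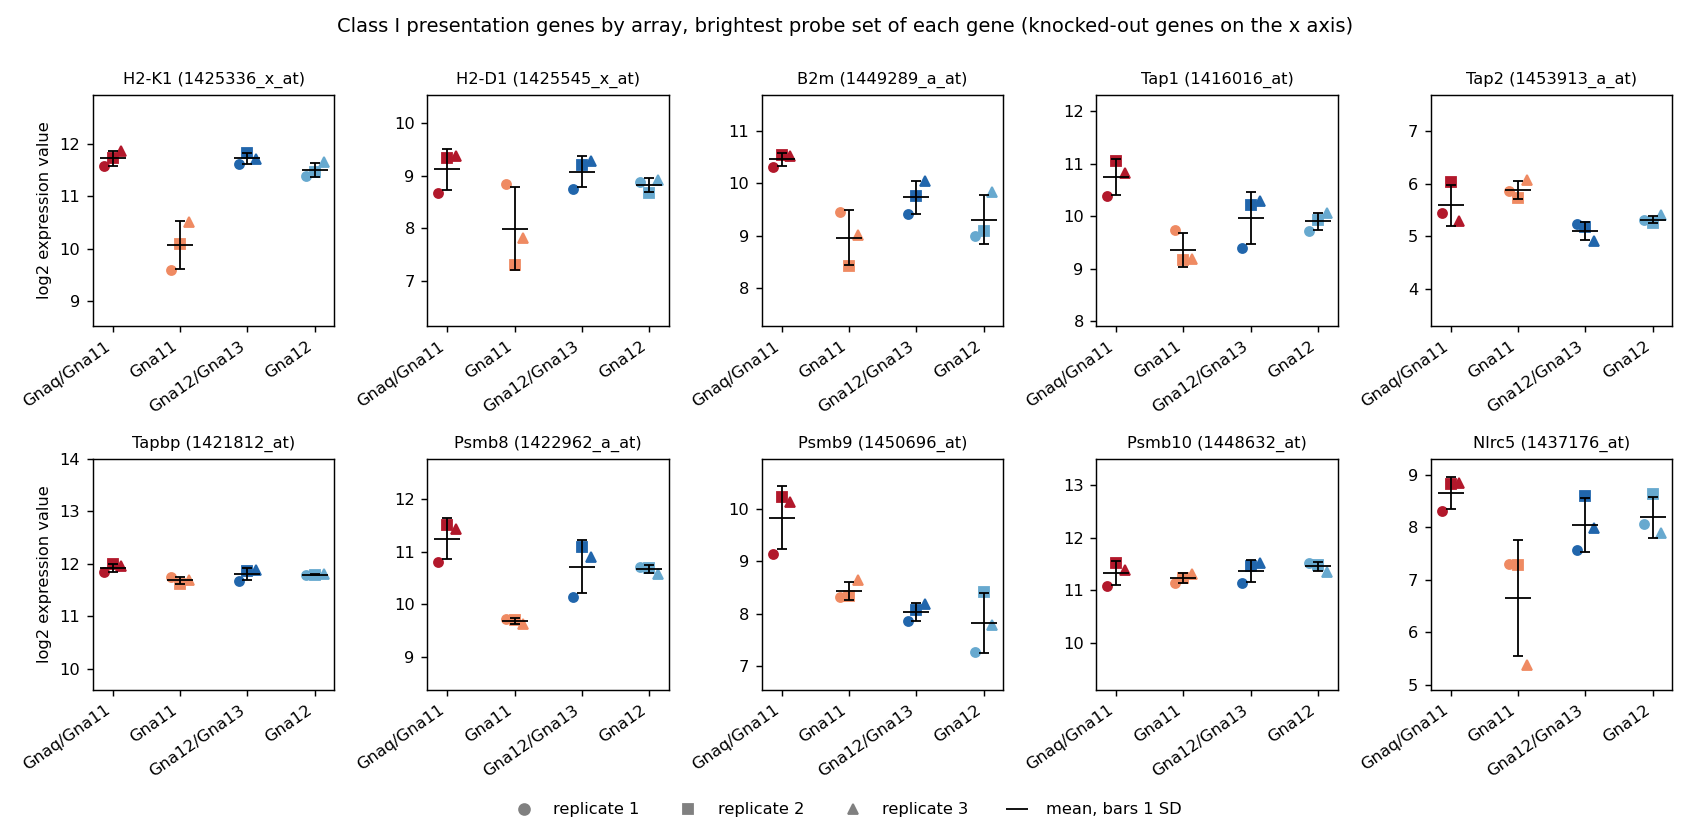
Log2 expression value (y axis, same span in every panel) of the brightest probe set of each of the 10 genes on the 12 arrays, by knocked-out genes on the x axis; symbols are replicates, lines are group means and bars are 1 SD (n = 3). H2-K1, Psmb8 and Nlrc5 are lowest in all 3 Gna11 arrays, and B2m, Tap1 and Psmb9 are highest in all 3 Gnaq/Gna11 arrays.

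Between Gnaq/Gna11 and Gna11 cells, which tests the added loss of Gnaq, 4 of the 10 genes were called higher in the double knockout and none lower. H2-K1, B2m, Tap1 and Psmb8 rose 2.62-fold to 3.15-fold by their brightest probe sets, while H2-D1, Tap2, Tapbp, Psmb9, Psmb10 and Nlrc5 did not pass. In all, 6 of the 27 probe sets were called higher at an adjusted p under 0.05 (limma, Benjamini-Hochberg over all probe sets), where 0.491% of all probe sets were called higher, and none was called lower, where 0.269% were. Over the brightest probe sets of the 10 genes the median difference was 1.39, against -0.03 over those of all 18193 genes. Of these 10 differences 9 were above 0. Over all 27 probe sets the median was lower, at 0.35, against -0.04 over all probe sets, with 21 above 0. In RNA of a whole culture, fewer cells of a type and less RNA per cell cannot be told apart.

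H2-K1, the heavy chain of the H2-K molecule, measured 11.57, 11.73 and 11.86 in Gnaq/Gna11 cells, against 9.59, 10.09 and 10.51 in Gna11 cells. All 3 double knockout arrays were above all 3 single knockout arrays, by a wide gap. It rose by 1.66 ± 0.185 (SE, limma adjusted p = 0.00484), which is 3.15-fold. A second H2-K1 probe set, 1427746_x_at, rose by 1.84 ± 0.207 (limma adjusted p = 0.00484), and its values followed the first closely over the 12 arrays (r = 0.98). The other pair did not pass: 1451931_x_at differed by 1.00 ± 0.332 (limma adjusted p = 0.222), and 1450534_x_at, near 5.1 in every group, by 0.05 ± 0.135.

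H2-D1, the heavy chain of the H2-D molecule, measured 8.67, 9.34 and 9.37 in Gnaq/Gna11 cells and 8.85, 7.31 and 7.82 in Gna11 cells. The groups overlapped, because Gna11 replicate 1 lay above the lowest double knockout array, and the difference of 1.13 ± 0.345 did not pass (limma adjusted p = 0.181). Over its 9 probe sets the difference ran from -0.33 to 1.13, with 6 above 0 and none called. Their values did not run together: pairs of H2-D1 probe sets correlated between -0.73 and 0.98 over the 12 arrays. The H2-K1 probe set 1451931_x_at followed the brightest H2-D1 probe set (r = 0.989) more closely than it followed the brightest H2-K1 probe set (r = 0.661). The heavy chain genes are close relatives, and how far their probes bind each other's transcripts was not tested, so a difference of 1 heavy chain cannot be assigned to that gene alone. No source used here states the H2 haplotype of the mice. Whether the groups carry different H2 alleles, which these probes could bind unequally, was not tested.

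B2m, the light chain that every class I molecule needs, measured 10.31, 10.54 and 10.51 in Gnaq/Gna11 cells, against 9.45, 8.41 and 9.01 in Gna11 cells. The groups did not overlap, and the double knockout arrays were close together while the single knockout arrays were spread over about 1 unit. It rose by 1.50 ± 0.285 (limma adjusted p = 0.0402), and its second probe set, 1452428_a_at, by 1.54 ± 0.292 (limma adjusted p = 0.0402).

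The transporter subunit Tap1 passed by 1 of its 4 probe sets. That probe set measured 10.38, 11.05 and 10.81 in Gnaq/Gna11 cells, against 9.73, 9.16 and 9.18 in Gna11 cells, with no overlap, and rose by 1.39 ± 0.258 (limma adjusted p = 0.0373). Its other 3 probe sets differed by -0.11 to 0.03 and none was called. Of these 3, 2 were below the median on all 12 arrays, and the mean over the 4 probe sets differed by 0.32 (limma adjusted p = 0.212). Tap2, the partner subunit, had 1 probe set, near the median: 5.44, 6.04 and 5.30 in Gnaq/Gna11 cells and 5.86, 5.74 and 6.07 in Gna11 cells. These overlapped, with a difference of -0.30 ± 0.196 (limma adjusted p = 0.550).

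Tapbp, which holds empty class I molecules at the transporter, was bright and nearly level, at 11.84, 11.99 and 11.95 in Gnaq/Gna11 cells and 11.75, 11.61 and 11.69 in Gna11 cells. The arrays did not overlap, but the difference was small, 0.24 ± 0.0692, and did not pass (limma adjusted p = 0.153). A second Tapbp probe set differed by 0.22 ± 0.263 (limma adjusted p = 0.766).

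Of the immunoproteasome subunits, Psmb8, the chymotrypsin-like one that replaces Psmb5, measured 10.80, 11.51 and 11.42 in Gnaq/Gna11 cells, against 9.72, 9.69 and 9.62 in Gna11 cells. The single knockout arrays lay close together and all were more than 1 unit below the double knockout arrays. The rise was 1.57 ± 0.233 (limma adjusted p = 0.0172), which is 2.96-fold. Its second probe set, below the median on all 12 arrays, differed by 0.15 ± 0.124 (limma adjusted p = 0.647). Psmb9, which replaces Psmb6 and is the neighbour of Tap1, measured 9.14, 10.23 and 10.13 in Gnaq/Gna11 cells and 8.32, 8.34 and 8.64 in Gna11 cells. These did not overlap either, yet the difference of 1.40 ± 0.324 missed the threshold (limma adjusted p = 0.0846). Psmb10, which replaces Psmb7, was bright and overlapped, at 11.09, 11.52 and 11.38 in Gnaq/Gna11 cells and 11.14, 11.24 and 11.32 in Gna11 cells, with a difference of 0.10 ± 0.126 (limma adjusted p = 0.786).

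Nlrc5, the class I transactivator, measured 8.31, 8.82 and 8.84 in Gnaq/Gna11 cells and 7.30, 7.28 and 5.37 in Gna11 cells. The groups did not overlap, and Gna11 replicate 3 was far below the other arrays of its group. The difference of 2.01 ± 0.475 was the largest among the 10 genes but did not pass (limma adjusted p = 0.0906), and it was 1.37 with that array left out. Over all members, 11 of 27 probe sets had all Gnaq/Gna11 arrays above all Gna11 arrays, where 7.7% of all probe sets did, and 2 had them all below, where 9.57% did. Both of these 2 were H2-D1 probe sets, 1452544_x_at at -0.33 and 1425614_x_at at -0.23 (limma adjusted p = 0.41 and 0.49).

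**Figure D2:**
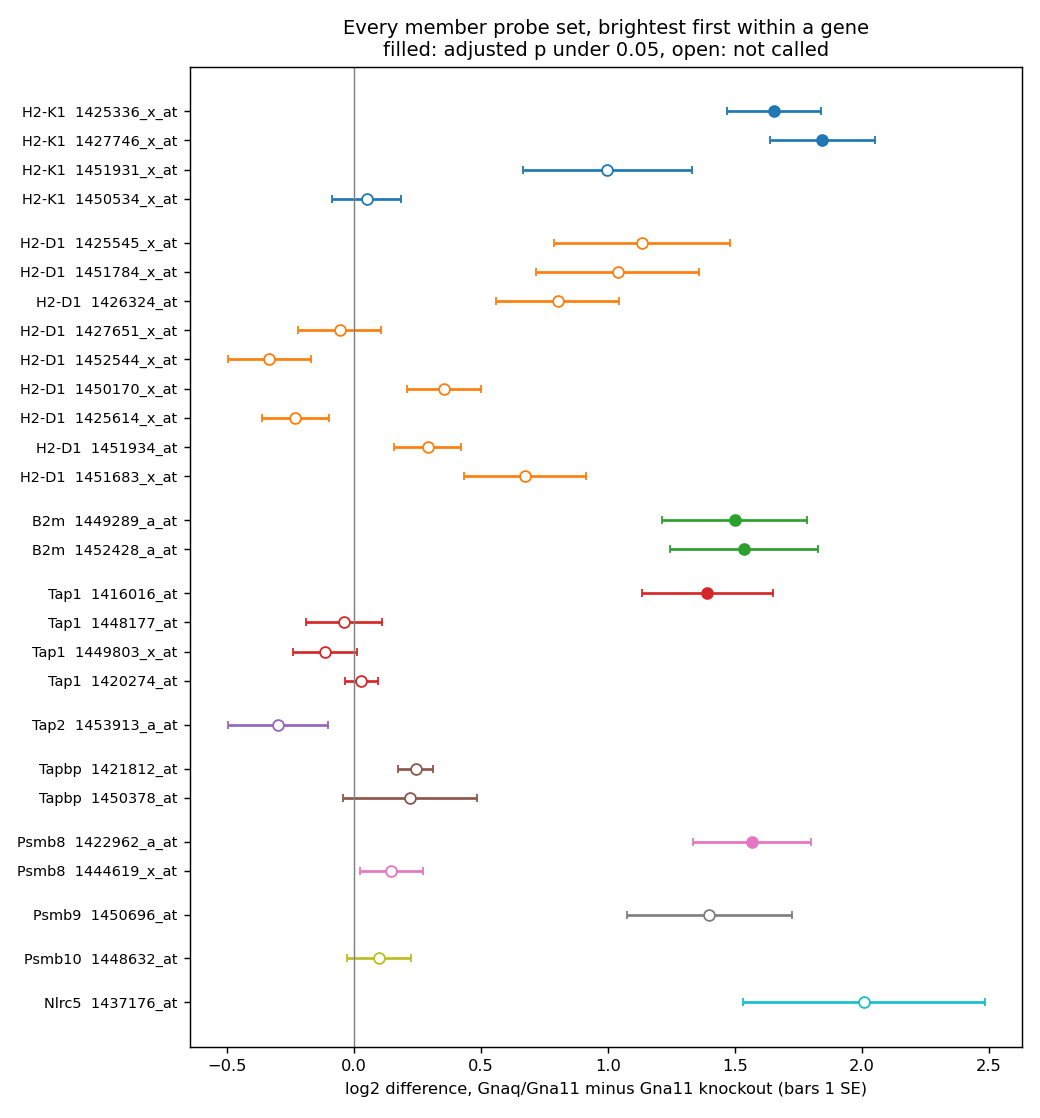
Log2 difference of Gnaq/Gna11 minus Gna11 knockout cells (x axis, bars 1 SE of the limma fit) for all 27 probe sets, grouped by gene with the brightest first; filled points passed an adjusted p under 0.05. Called probe sets of H2-K1, B2m, Tap1 and Psmb8 sit between 1.39 and 1.84, while some other probe sets of H2-K1, H2-D1, Tap1 and Psmb8 sit near 0.

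The call for H2-K1 stood with any 1 of the 6 compared arrays left out (1.42 to 1.88). Psmb8 lost its call without Gnaq/Gna11 replicate 2 or 3, and Tap1 and B2m lost theirs in 4 and 5 of these 6 fits. With only the 6 compared arrays in the fit, H2-K1 lost its call (limma adjusted p = 0.0591). Psmb8 alone kept its call there (limma adjusted p = 0.0487).

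Markers of leukocytes moved with these genes. The pan-leukocyte mean was 9.49 to 9.55 in Gnaq/Gna11 cells, against 8.38 to 9.08 in Gna11 cells. The macrophage mean was 9.47 to 9.54 in Gnaq/Gna11 cells, against 7.62 to 8.46 in Gna11 cells. The dendritic cell mean was 6.81 to 7.02 in Gnaq/Gna11 cells, against 5.14 to 5.81 in Gna11 cells. Of its 7 measured genes 2, Ccr7 and Fscn1, rose by 3.19 ± 0.318 and 4.40 ± 0.828 (limma adjusted p = 0.0026 and 0.0392). Over these 7 genes 5 differed above 0, and the median difference was only 0.45. Among the 20 pan-leukocyte genes none was called and 19 differed above 0, with a median of 0.72. Markers of T, B and NK cells overlapped, at 5.79 to 6.08 in Gnaq/Gna11 cells and 5.90 to 6.04 in Gna11 cells. Of 8 fibroblast markers 2, Col1a1 and Col3a1, rose by 1.57 ± 0.264 and 2.10 ± 0.338 (limma adjusted p = 0.0262 and 0.0247). Only 4 of these 8 differed above 0, and their median difference was 0.01. When the pan-leukocyte mean entered the fit as a covariate, no member was called. That fit called only 12 of all 45037 probe sets higher and 2 lower, against 221 and 121 without a covariate. With the pan-leukocyte mean the differences were 1.53 for H2-K1, 1.35 for B2m, 1.13 for Psmb8 and 1.05 for Tap1 (limma adjusted p = 0.178, 0.578, 0.464 and 0.642). Class I genes are active in leukocytes too, and the part of these cells in the differences was not tested beyond this fit. A measure of RNA quality, the 3′ signal of the Gapdh controls minus their 5′ signal, was 3.01 to 3.26 in Gnaq/Gna11 cells, against 3.46 to 4.03 in Gna11 cells. No member was called with it as a covariate, where only 4 of all 45037 probe sets were called higher and 2 lower. The differences were then 1.36 for H2-K1, 1.93 for B2m, 1.46 for Psmb8 and 1.55 for Tap1 (limma adjusted p = 0.15, 0.178, 0.247 and 0.251). Eif2s3y, a Y-linked gene, measured 3.54, 3.32 and 3.44 in Gnaq/Gna11 cells, against 7.11, 3.56 and 7.00 in Gna11 cells, so it was low on all 3 double knockout arrays and high on 2 of the 3 single knockout arrays. With it as a covariate, a fit chosen after seeing the data, H2-K1 and B2m passed (limma adjusted p = 0.0212 and 0.046), while Psmb8, at 1.41, and Tap1, at 1.35, lost their calls (limma adjusted p = 0.0516 and 0.0838).

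**Figure D3:**
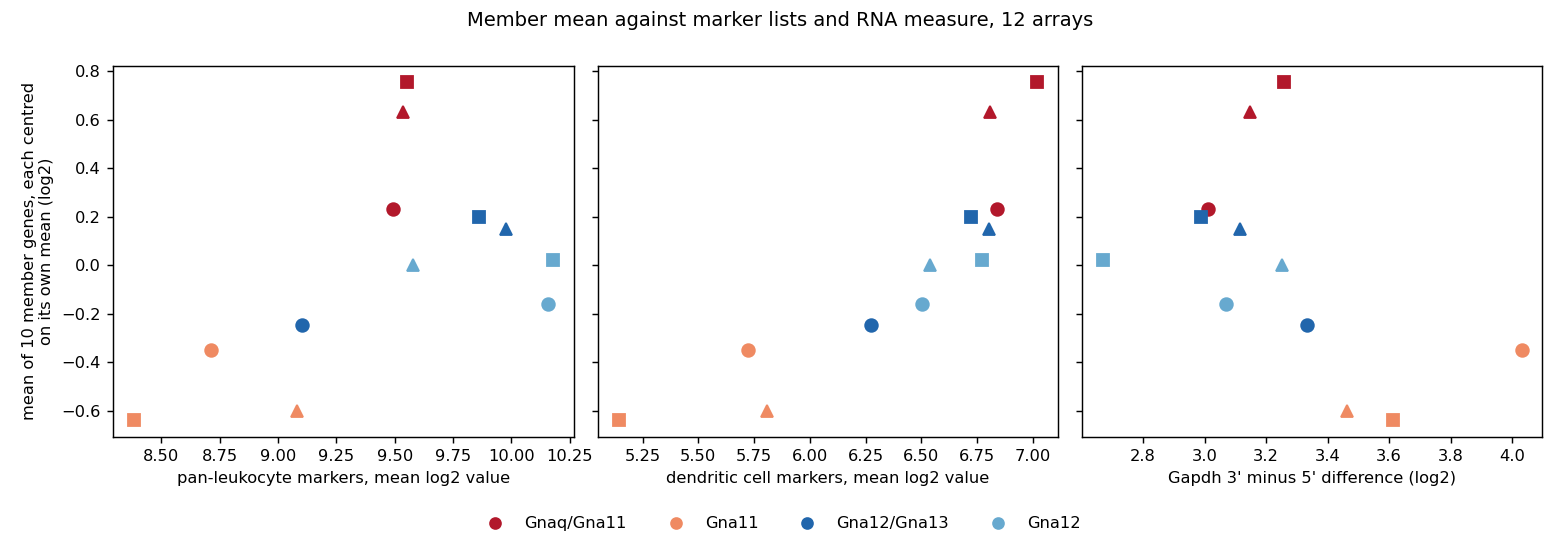
Mean of the 10 genes on each of the 12 arrays, each gene centred on its own mean (y axis, log2), against the mean log2 value of pan-leukocyte markers (left), of dendritic cell markers (middle) and the Gapdh 3′ minus 5′ log2 difference (right); colours are genotypes, and circles, squares and triangles are replicates 1, 2 and 3. Gna11 arrays lie lowest on the y axis (-0.64 to -0.35) and lowest on both marker axes, and Gnaq/Gna11 arrays highest on the y axis (0.23 to 0.75).

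Between Gna12/Gna13 and Gna12 cells, which tests the added loss of Gna13, no class I or immunoproteasome gene was called. The median difference of the 10 genes was 0.06, against 0.00 over all genes, and the 10 differences ran from -0.21 for Tap2 to 0.43 for B2m. Limma called 0.0% of all probe sets here, the smallest adjusted p of any probe set was 0.337, and at an unadjusted p under 0.05 there were 0 members among 1889 probe sets.

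H2-K1 measured 11.62, 11.83 and 11.71 in Gna12/Gna13 cells and 11.39, 11.47 and 11.65 in Gna12 cells, a difference of 0.21 ± 0.185. Psmb8 measured 10.14, 11.09 and 10.90 in Gna12/Gna13 cells and 10.71, 10.69 and 10.57 in Gna12 cells, a difference of 0.05 ± 0.233. Both overlapped, and replicate 1 was the lowest Gna12/Gna13 array for each. B2m, with the largest difference of the brightest probe sets, measured 9.42, 9.75 and 10.04 in Gna12/Gna13 cells and 8.99, 9.09 and 9.83 in Gna12 cells, and 0.43 ± 0.285 did not pass (limma adjusted p = 1.0). Tap1 differed by 0.07 ± 0.258, Nlrc5 by -0.14 ± 0.475 and Psmb9 by 0.21 ± 0.324. Of the 27 probe sets 1 had all Gna12/Gna13 arrays above all Gna12 arrays (5.44% of all probe sets did) and 1, that of Tap2, had them all below (5.39% did). The pan-leukocyte mean overlapped, at 9.10 to 9.98 in Gna12/Gna13 cells and 9.58 to 10.18 in Gna12 cells, with a median difference of -0.27 over its 20 genes, none of them called.

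**Figure D4:**
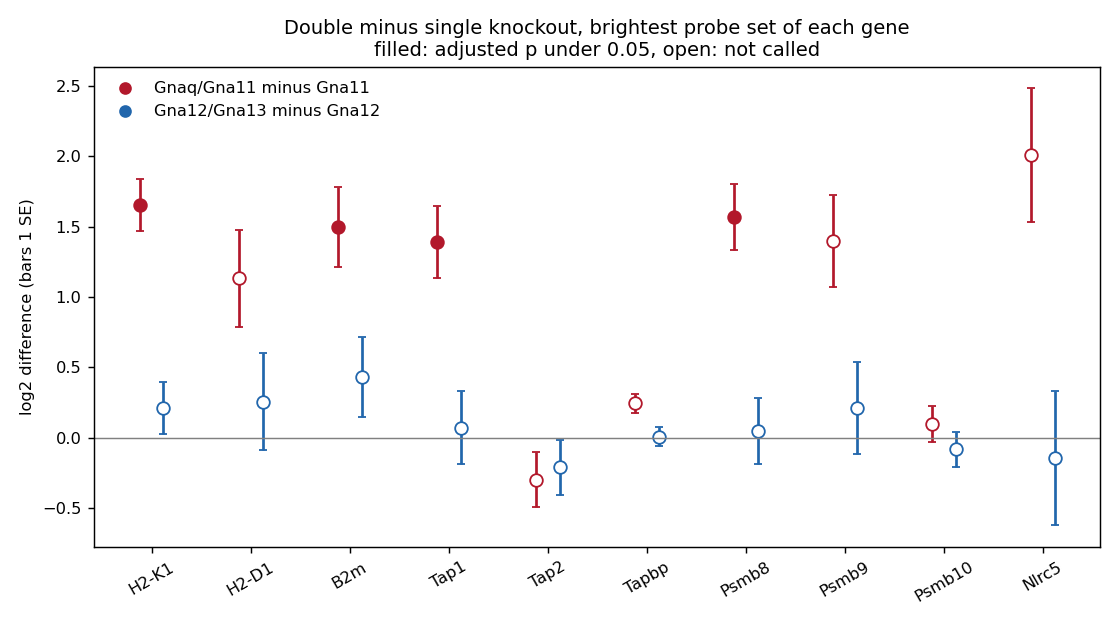
Log2 difference of double minus single knockout cells (y axis, bars 1 SE) for the brightest probe set of each gene, with Gnaq/Gna11 minus Gna11 left of Gna12/Gna13 minus Gna12; filled points passed an adjusted p under 0.05. H2-K1, B2m, Tap1 and Psmb8 differ by 1.39 to 1.66 in the Gnaq pair, and all 10 genes lie between -0.21 and 0.43 in the Gna13 pair.

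Whether both double knockouts differed from their single knockouts to the same degree was tested as a difference of differences. For no member did this pass, where 0.02% of all probe sets did. The smallest member adjusted p was that of H2-K1, whose difference of differences was 1.44 ± 0.262 (limma adjusted p = 0.109). Psmb8 had 1.52 ± 0.330 (limma adjusted p = 0.163), Tap1 1.32 ± 0.365 (0.284) and B2m 1.07 ± 0.403 (0.463). Since none passed, the calls in the Gnaq pair are not shown to be particular to it. The median over the brightest probe sets of the 10 genes was 1.13, against -0.02 over all genes. Over the 27 probe sets it was 0.36, against -0.03 over all probe sets. Without Gna11 replicate 3, H2-K1 alone was called (limma adjusted p = 0.0334).

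Setting the double knockouts against each other, Psmb9 stood out. It measured 9.14, 10.23 and 10.13 in Gnaq/Gna11 cells, against 7.86, 8.07 and 8.18 in Gna12/Gna13 cells, and rose by 1.80 ± 0.324 (limma adjusted p = 0.0157), which is 3.48-fold. It was 1 of 27 probe sets called higher, where 1.19% of all probe sets were, and none was called lower, where 1.69% were. Its call was lost without either of replicates 2 and 3 of Gnaq/Gna11 cells or of replicates 1 and 2 of Gna12/Gna13 cells, with differences of 1.60 to 2.15 over the 6 fits that left out 1 array. H2-K1 hardly differed, at 11.72 ± 0.146 in Gnaq/Gna11 cells and 11.72 ± 0.103 in Gna12/Gna13 cells (SD, n = 3 each, limma adjusted p = 0.999). B2m was 0.72 ± 0.285 and Tap1 0.78 ± 0.258 above the Gna12/Gna13 arrays with no overlap, without passing (limma adjusted p = 0.217 and 0.142). For 9 of 27 probe sets the Gnaq/Gna11 arrays were all higher (13.7% of all probe sets were), and for 0 all lower (11.3% were). The pan-leukocyte mean overlapped here, at 9.49 to 9.55 in Gnaq/Gna11 cells and 9.10 to 9.98 in Gna12/Gna13 cells, whereas type II cell markers did not, at 11.18 to 11.31 in Gnaq/Gna11 cells and 10.38 to 10.67 in Gna12/Gna13 cells. Their part in the Psmb9 difference was not tested. Eif2s3y was high on 2 of the 3 Gna12/Gna13 arrays and low on all 3 Gnaq/Gna11 arrays, and with it as a covariate Psmb9 was still called, at 1.63 (limma adjusted p = 0.0419).

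Setting the single knockouts against each other, H2-K1 was higher in Gna12 cells. It measured 11.39, 11.47 and 11.65 in Gna12 cells, against 9.59, 10.09 and 10.51 in Gna11 cells, and rose by 1.44 ± 0.185 (limma adjusted p = 0.00866), with its second probe set at 1.38 ± 0.207 (limma adjusted p = 0.0163). These were 2 of 27 probe sets called higher, where 0.844% of all probe sets were, and none was called lower, where 0.457% were. Psmb8, at 10.71, 10.69 and 10.57 in Gna12 cells, was 0.98 ± 0.233 above the Gna11 arrays with no overlap and missed the threshold (limma adjusted p = 0.0682). Nlrc5 differed by 1.55 ± 0.475 (limma adjusted p = 0.130). Psmb9 lay the other way, at 7.28, 8.41 and 7.78 in Gna12 cells, with a difference of -0.61 ± 0.324 and overlap (limma adjusted p = 0.350), and Tap2 differed by -0.57 ± 0.196 with no overlap (limma adjusted p = 0.167). For 9 of 27 probe sets the Gna12 arrays were all higher (8.97% of all probe sets were) and for 5 all lower (14.4% were). Beside this, 7 of 20 pan-leukocyte genes rose, with a list mean of 9.58 to 10.18 in Gna12 cells, against 8.38 to 9.08 in Gna11 cells. The comparison of the single knockouts, the Gnaq pair and the difference of differences share the Gna11 arrays, so their results are not independent. A position code in the labels has 1 number for both groups lacking Gna11 and another for both lacking Gna12, and 1 set of letters for single and another for double knockouts, and neither can be told apart from genotype. H2-K1 lost its call without Gna12 replicate 2 (limma adjusted p = 0.0533), with the fit of these 6 arrays alone, and with the pan-leukocyte mean or the Gapdh difference as a covariate. With either covariate, 0 of all 45037 probe sets were called in this comparison.

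The order of the 4 groups fell into a few patterns. For H2-K1, Psmb8 and Nlrc5 the Gna11 arrays were the lowest without overlapping any other group, and the 3 other groups overlapped each neighbour. Tapbp also had its lowest mean in Gna11 cells, but Gna12/Gna13 replicate 1, at 11.68, lay within the range of the Gna11 arrays. For B2m, Tap1 and Psmb9 the Gnaq/Gna11 arrays were highest without overlapping the next group. In H2-D1 and Psmb10 every neighbouring pair overlapped. For Psmb9 the means of both groups lacking Gna11 lay above those of both lacking Gna12, with 9.83 ± 0.603 in Gnaq/Gna11, 8.44 ± 0.177 in Gna11, 8.04 ± 0.165 in Gna12/Gna13 and 7.82 ± 0.570 in Gna12 cells (SD, n = 3 each), although Gna12 replicate 2, at 8.41, lay within the range of the Gna11 arrays. Tap2 was similar in that its means were 5.59 ± 0.394 in Gnaq/Gna11 and 5.89 ± 0.168 in Gna11 cells, above 5.11 ± 0.172 in Gna12/Gna13 and 5.32 ± 0.071 in Gna12 cells.

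Members were also compared by how closely each followed the mean of the other 9 over the 12 arrays, as a description, since the arrays share genotypes and cell makeup. Tap1 (r = 0.974), Tapbp (0.958) and Psmb8 (0.943) followed it closely, B2m (0.852), H2-D1 (0.757), Nlrc5 (0.715) and H2-K1 (0.647) less so, and Psmb9 (0.505), Psmb10 (0.389) and Tap2 (-0.317) least. The mean of the 10 centred genes was 0.23, 0.75 and 0.63 in Gnaq/Gna11 cells, and -0.35, -0.64 and -0.60 in Gna11 cells. It was -0.24, 0.20 and 0.15 in Gna12/Gna13 cells and -0.16, 0.02 and 0.00 in Gna12 cells. Replicate 1 was thus the lowest array of both double knockouts.

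Among 12022 other genes at or above the median, the 10 most like this mean were Erp29 (r = 0.959), Ifi27l2a (0.948), Zbp1 (0.945), Gfus (0.938), Pdhx (0.931), Gpr176 (0.931), H2-Eb1 (0.928), Oas1a (0.908), Dhcr7 (0.902) and Sting1 (0.899). Erp29 is a chaperone of the endoplasmic reticulum, and Zbp1 and Sting1 take part in the response to nucleic acid. Oas1a is an interferon-induced antiviral enzyme and H2-Eb1 is a class II chain. By Spearman's rank correlation 4 of these 10 were again among the first 10.

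Other parts of the pathway were read in the same comparison, Gnaq/Gna11 minus Gna11, from lists chosen with earlier results of these data known. The standard catalytic subunits did not pass, with 0.27 for Psmb5, 0.03 for Psmb6 and -0.05 for Psmb7, and neither did any of the 11 other subunits of the 20S core (median 0.15, with Psma2 the highest at 0.79 ± 0.162, limma adjusted p = 0.0534). Of 8 measured activator and assembly genes 1 rose, Psme1, a subunit of the interferon-induced PA28 activator (0.30 ± 0.0601, limma adjusted p = 0.0477), and the median was 0.25. Psme2, its partner, was not among the genes with a probe set annotated to them alone, so no value is given for it. None of 9 peptide loading and trimming genes passed (median 0.12), with Erap1, which trims peptides in the endoplasmic reticulum, at 0.51 ± 0.256 and Calr, a chaperone of class I folding, at 0.46 ± 0.220. Of 15 listed non-classical class I genes 8 were not among the genes with a probe set annotated to them alone. None of the other 7 passed (median difference -0.05), and 4 of these 7 were at or above the median of all probe set means.

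Among regulators, none of 9 class I promoter factors passed (median 0.02), with Ciita, the class II counterpart of Nlrc5, at 0.91 ± 0.398 (limma adjusted p = 0.352). None of 17 interferon signalling genes passed, with a median of 0.29 and Irf7, which drives type I interferon genes, at 1.14 ± 0.302 (limma adjusted p = 0.126). None of 12 targets typical of interferon gamma passed (median 0.03), and Cxcl9, a T cell attractant, had 1.67 ± 0.556 (limma adjusted p = 0.222). Of 13 targets typical of type I interferon 4 rose, with a median of 0.98: Oas1a by 1.81 ± 0.236, Oas2 by 1.55 ± 0.275, Mx1 by 1.48 ± 0.249 and Rsad2 by 0.98 ± 0.155 (limma adjusted p = 0.0117, 0.0317, 0.027 and 0.0232). Class II genes moved in number, as 5 of 8 rose with a median of 1.11: H2-DMa by 1.54 ± 0.230, H2-DMb2 by 1.37 ± 0.258, H2-Eb1 by 1.12 ± 0.176, H2-Ab1 by 0.67 ± 0.105 and Cd74 by 0.53 ± 0.0755 (limma adjusted p = 0.0174, 0.0391, 0.0226, 0.0218 and 0.0146). Both of these lists hold genes that leukocytes express as well, and the leukocyte marker levels given above moved with them. In Gna12/Gna13 minus Gna12 cells none of these lists had a called gene, and the medians were 0.42 for the type I targets and -0.05 for class II.

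**Figure D5:**
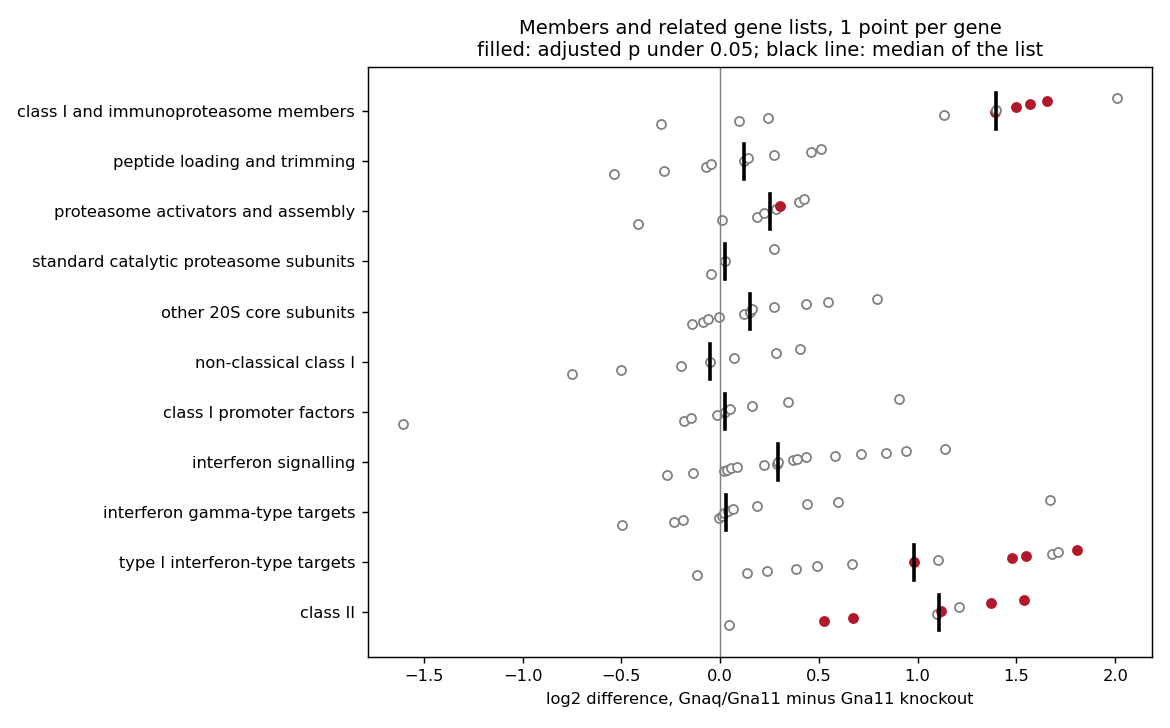
Log2 difference of Gnaq/Gna11 minus Gna11 knockout cells (x axis) for the 10 genes and 10 related lists (rows), 1 point per gene (its brightest probe set), filled where the adjusted p was under 0.05, with the median of each list as a black line. The 10 genes, type I interferon-type targets and class II genes have medians of 1.39, 0.98 and 1.11, and the other 8 lists have medians of -0.05 to 0.29.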

How the data were processed

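The authors deposited 1 log2 expression value per probe set and array, which the submitters' processing notes credit to RMA. RMA corrects background, normalizes between arrays and summarises probes. Neither the software, the annotation nor the log base is stated in the labels. The base was read as 2 because the values run from 2.13 to 14.1. Of 45101 probe sets 64 controls were left out of the tests. The platform annotation named 1 gene for 34945 probe sets, several for 932 and none for 9160, and RefSeq (GRCm38.p6) held the gene number of 34741 of the 34945. Groups came from the sample titles.

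Limma 3.58.1 in R 4.3.3 fitted 1 mean per group to all 12 arrays (lmFit, eBayes with an intensity trend, 8 residual degrees of freedom), with two-sided tests and Benjamini-Hochberg adjustment over 45037 probe sets. The code was tested on simulated data. The number of arrays limits the precision. Alternatives changed the variance trend, the probe sets, the normalization, array weights, arrays, covariates, the replicate block and the threshold. All members were named, with every probe set. From each related list up to 4 genes were named, called ones first and then the largest differences, and the 10 genes most like the members were taken by Pearson's r. Ccr7, Fscn1, Col1a1, Col3a1 and the class II genes beyond 4 were named after their values were seen. Members and lists were chosen with earlier results of these data known.

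The promoter motifs were set with the RefSeq windows in view, and the interferon and kappa B motifs were shortened by a base after a first search, so the shares of windows that hold them are descriptions without a test.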

Additional observations from a re-analysis of the deposited data

How the results depend on the processing

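No gene that was called changed sign under any alternative run, and the cause of each lost call was not tested. In Gnaq/Gna11 minus Gna11 cells, where 6 of 27 member probe sets were called, 3 were called with array weights, 1 with only the arrays compared, 0 with the pan-leukocyte mean and 0 with the Gapdh difference as a covariate, 2 at an adjusted p under 0.01, 3 without Gna11 replicate 2 and Gnaq/Gna11 replicate 1 together, and 4 with Eif2s3y as a covariate (those of H2-K1 and B2m), these last 2 alternatives chosen after seeing the data. The 1 called with only the arrays compared was that of Psmb8. Calls over all 45037 probe sets fell as well. Called higher were 221 as reported, 119 with array weights, 68 with only the arrays compared, 12 with the pan-leukocyte mean and 4 with the Gapdh difference. There were 19 at an adjusted p under 0.01, 75 without the 2 arrays together and 127 with Eif2s3y. Leaving out 1 array gave 2 to 8 members, with 2 without Gnaq/Gna11 replicate 2 or 3 and 3 without Gna11 replicate 2. Over all probe sets 100, 56 and 123 were called higher in these 3 fits. H2-K1 was called in 15 of 18 alternatives, Psmb8 in 13, B2m in 6, Tap1 in 5, Psmb9 in 2, H2-D1 in 1 and Nlrc5 in 0. Their limma adjusted p ran over these from 0.00106 to 0.178 for H2-K1, 0.0103 to 0.464 for Psmb8, 0.0224 to 0.578 for B2m and 0.0241 to 0.642 for Tap1. In Gna12/Gna13 minus Gna12 cells 0 members were called under every alternative run. The difference of differences gave 0 to 1 with 1 array left out, and for H2-K1 its limma adjusted p ran from 0.0334 to 0.905 over 23 alternatives. In Gnaq/Gna11 minus Gna12/Gna13 cells, where 1 was called, leaving out 1 array gave 0 to 1 and an adjusted p under 0.01 gave 0. At that threshold 129 of all 45037 probe sets were called higher. In Gna12 minus Gna11 cells, where 2 were called, the counts were 4 among probe sets at or above the median (3 higher and 1 lower, the H2-D1 probe set 1425614_x_at at -0.52), 1 with 1 probe set per gene, 0 with only the arrays compared, 0 with the pan-leukocyte mean, 0 with the Gapdh difference, 1 at an adjusted p under 0.01 and 0 to 2 with 1 array left out, and for H2-K1 the limma adjusted p ran from 0.00197 to 0.816. Beside these, 691 of the 22519 probe sets at or above the median were called higher and 347 lower. Called higher were 316 of 18193 with 1 probe set per gene, 14 of 45037 with only the arrays compared and 31 at an adjusted p under 0.01. Either covariate left 0 called. Over all probe sets the calls ran from 6 to 514 (342 as reported), 0 to 4 (0), 0 to 33 (9), 273 to 2062 (1294) and 0 to 1038 (586) in the 5 comparisons in the order given in the report.

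Samples of the same replicate number deviated together little (r of 0.004 to 0.055 in the Gnaq pair, -0.011 to 0.198 in the Gna13 pair), so the numbers were not taken as a pairing. With the replicate number as a block 4 member probe sets were called in Gnaq/Gna11 minus Gna11 cells, those of H2-K1, Psmb8 and Psmb9 (limma adjusted p = 0.00254, 0.0187 and 0.049), while B2m and Tap1 lost their calls (0.0501 and 0.0534). There were 0 in Gna12/Gna13 minus Gna12 cells, 0 for the difference of differences, 1 between the double and 2 between the single knockouts. Signal over background limits the dimmest probe sets, 6 of which lay below the median.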

Other observations

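Probe sets annotated to several genes were left out of the 27 but bear on the heavy chains. The probe set shared by H2-K1 and H2-D1 (1424948_x_at) measured 7.88, 8.19 and 8.71 in Gnaq/Gna11 cells, against 6.03, 6.21 and 6.80 in Gna11 cells, and rose by 1.91 ± 0.255 (limma adjusted p = 0.0117). It also rose by 1.44 ± 0.255 in Gna12 against Gna11 cells (limma adjusted p = 0.029). Its arrays followed the pattern of the brightest H2-K1 probe set, with the Gna11 arrays lowest and no overlap.

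The probe set shared by H2-Q5 and H2-K1 (1451593_at) had another order, with both groups lacking Gna12 lowest. It measured 7.40, 8.75 and 8.52 in Gnaq/Gna11 cells, against 5.14, 5.36 and 5.14 in Gna12/Gna13 cells, and rose by 3.01 ± 0.398 (limma adjusted p = 0.00465), which is 8.06-fold. All 3 Gna12 arrays were as low (5.16 to 5.49), and below all 3 Gna11 arrays (5.98 to 7.51), a difference of -1.55 ± 0.398 that did not pass (limma adjusted p = 0.0824). The Gnaq/Gna11 arrays overlapped the Gna11 arrays, and a difference of 1.40 ± 0.398 between these groups did not pass either (limma adjusted p = 0.155). H2-Q2, a non-classical class I gene, had means of 5.94 in Gnaq/Gna11 and 4.30 in Gna12/Gna13 cells and rose by 1.65 (limma adjusted p = 0.0196). Psme1 rose by 0.26 in the same comparison (limma adjusted p = 0.0464). Mouse line and position code cannot be told apart here.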
